A study of Mus musculus with 24 samples.

Results

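The transcription factors of the adrenal cortex and its embryonic precursor Nr5a1, Nr0b1, Gata4, Gata6, Wt1 and Nr5a2 were followed in whole adrenal glands of mice lacking Prkar1a in the aldosterone-producing lineage. The 6 genes were taken by symbol from 21957 genes with a single symbol on the array, and each had 1 probe set. All 6 read above a log2 signal of 5 in all 24 arrays, and so were among the 14411 genes tested. Values are log2 signals after robust multi-array averaging (RMA), a normalization in which 1 unit is a doubling, so levels can be compared between arrays for 1 gene but not between genes.

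Prkar1a encodes the regulatory subunit that keeps protein kinase A inactive until cyclic AMP binds. Its deletion (KO) was set against controls (WT) in 3 settings, females, males with their testes (intact) and gonadectomized (GDX) males, with 4 biological replicates in each of 6 groups. All mice were 7 months old, of a mixed sv129-C57Bl/6 background, and gonadectomy covered the last 2 months of life in the GDX groups. Every KO mouse was Prkar1a fl/fl;cre/+, with Cre inserted in the Cyp11b2 locus, so that recombination starts in zona glomerulosa cells and marks their descendants; the rest of the gland keeps Prkar1a. The WT groups did not share 1 genotype. WT females were Prkar1a fl/+;cre/+, intact WT males were Prkar1a fl/fl without Cre, and among WT GDX males array 1 was Prkar1a +/+ without Cre, arrays 2 and 3 were +/+ with cre/+, and array 4 was fl/+ with cre/+. All mice carried the mTmG reporter on both alleles, except the WT GDX mouse of array 2, which was mTmG/+. Differences between sexes or gonadal states among WT glands therefore cannot be told apart from these differences in Prkar1a and Cre alleles. The same WT groups are the controls of the KO changes. Differences between KO effects across sexes or gonadal states thus cannot be told apart from the control genotypes either. Each array held 500 ng of total RNA from whole glands, in which fewer cells of a type and less RNA per cell cannot be told apart.

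The targeted gene ran with the labels. Within each sex and gonadal state the KO arrays lay wholly under the WT arrays for Prkar1a. It fell by 1.43 ± 0.23 (log2, SE; limma adjusted p = 5.83e-05) in females and by 1.19 ± 0.23 (adjusted p = 0.00477) in the GDX state. For intact males the change was -0.92 ± 0.23 (limma adjusted p = 0.160), with KO array 1 at 6.89 and the other KO arrays between 8.08 and 8.47. The sources used here do not give where the probe set lies relative to the deleted part of the gene. The cortical genes Star (12.9 to 13.2) and Cyp11a1 (12.5 to 12.9) and the medullary gene Th (9.75 to 11.4) were bright in all 24 arrays. Markers of neighbouring organs were mixed. Of the kidney list, Slc12a1, Slc12a3 and Kap stayed under 5 in all 24 arrays, while Synpo reached 6.12 and Aqp2 5.74. Of the pancreas list, Cela3b, Cpa1, Prss2, Cel, Ptf1a and Amy2b stayed under 5, while Cela1 read 7.0 to 9.32 and Ctrb1 5.33 to 5.99. Of the liver list, Fgb and Tat stayed under 5, while Cyp2e1 read 7.15 to 10.9 and Alb reached 8.82 in a WT female.

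NR5A1, also called SF-1, is the nuclear receptor on which formation of both the adrenal cortex and the gonads depends, and it activates most genes of steroid synthesis. NR0B1, or DAX-1, is an X-linked orphan receptor that represses NR5A1-driven transcription, and NR5A2, or LRH-1, is the closest relative of NR5A1 and binds the same kind of site. GATA6 is the GATA factor of the adult cortex, GATA4 belongs to the fetal adrenal and the gonads, and WT1 drives Nr5a1 in the primordium from which adrenal and gonad both arise, and is normally silenced as cortical cells differentiate. Gata4 and Wt1 are known from gonadectomized mice of some strains as marks of gonad-like cells under the adrenal capsule.

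Of 72 limma tests (6 genes in 9 comparisons between 2 groups and in 3 tests of the difference between KO effects), 9 passed an adjusted p of 0.05. Sex gave 6 of the 9, KO in females gave 2, and gonadectomy of WT males gave 1. Nr5a1 and Nr0b1 were higher in females than in intact males, Gata6 was lower in KO females than in intact KO males, and Gata4 and Wt1 were lower in KO than in WT females. No test of Nr5a2 passed.

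**Figure D1:**
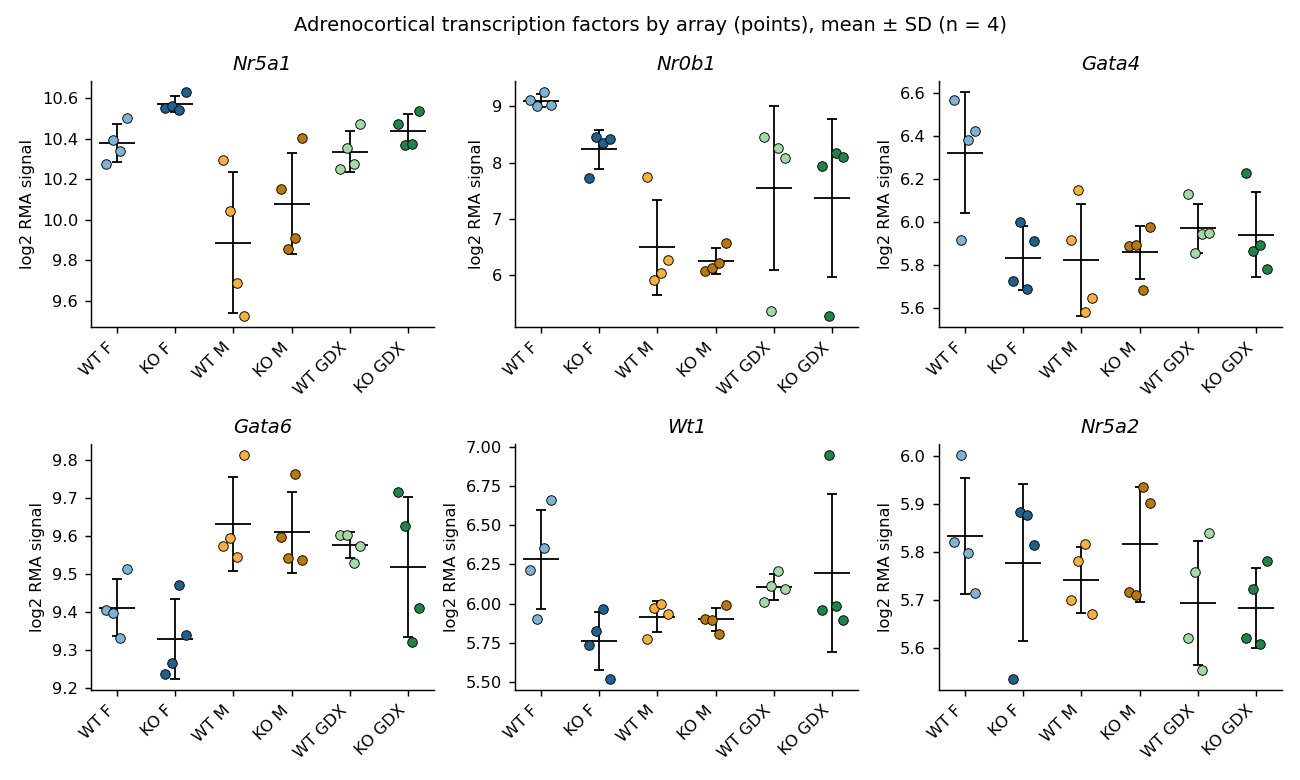
Log2 RMA signal of each gene (vertical axis, with its own scale per gene) in the 6 groups (horizontal axis; F female, M intact male, GDX gonadectomized male). Points are arrays, in replicate order from left to right, and bars are the mean ± SD (n = 4). Nr0b1 reads between 9.02 and 9.25 in WT females, and 5.37 and 5.28 in array 2 of the GDX groups.

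Nr5a1 was lowest and most variable in intact males. Its signal was 10.28, 10.39, 10.34 and 10.50 in WT females, and 10.55, 10.56, 10.54 and 10.63 in KO females. Intact males read 10.30, 10.04, 9.69 and 9.53 in WT, and 10.15, 9.86, 9.91 and 10.40 in KO. The WT male arrays ran from within the range of WT females down to the lowest value of the series, and all KO male arrays lay under all KO female arrays. In GDX males Nr5a1 read 10.25, 10.35, 10.28 and 10.47 in WT, and 10.47, 10.37, 10.38 and 10.54 in KO. WT GDX arrays 2 to 4 lay in or next to the range of WT females and array 1 just under it. The KO GDX arrays lay under all KO female arrays, the highest (10.5388) only just under the lowest KO female array (10.5415). The SD fell from 0.35 (n = 4) in intact WT males to 0.10 (n = 4) in WT GDX males.

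Nr5a1 rose in females over intact males by 0.49 ± 0.13 (log2, SE; limma adjusted p = 0.0175) in WT and by 0.49 ± 0.13 (adjusted p = 0.00348) in KO, which is 1.40-fold and 1.41-fold. In WT it was 1 of 3 members called higher among the 3.73% of all tested genes that were called higher, and in KO 1 of 2 among 17.8%. Members whose groups did not overlap numbered 2 of 6 in WT, against 15.1% of all genes, and 3 of 6 in KO, against 36.6%. The groups overlapped in WT, where the exact two-sided permutation test gave p = 0.0571, and did not overlap in KO, where it gave p = 0.0286, the smallest that 4 against 4 arrays allow. The WT call was lost without WT female array 4 (limma adjusted p = 0.0555), WT male array 3 (0.0742) or WT male array 4 (0.0811). The KO call held without any 1 array, and was lost with the medullary marker mean (limma adjusted p = 0.364) or the capsular marker mean (0.201) of each array as a covariate. Between KO females and intact KO males, neither the medullary mean (8.86 to 9.43 and 9.97 to 10.2) nor that of 9 capsular markers (7.02 to 7.24 and 7.73 to 8.33) overlapped. The capsular covariate was fitted without Tcf21 and Nr2f2, so its ranges can differ from those of the 9. By the means shown, marker level and sex were nearly the same split in KO. The change stayed at 0.33 or more under every setting.

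Gonadectomy raised Nr5a1 in WT males by 0.45 ± 0.13 (log2, SE; limma adjusted p = 0.0439), the single member called of 6, where 4.50% of all genes were called and 1.94% called higher. In KO males the change was 0.36 ± 0.13 (limma adjusted p = 0.0581), where 15.4% were called. Both pairs of groups overlapped. The WT call was lost on leaving out any of 6 of the 8 arrays, and with the replicate number as a block (0.45, limma adjusted p = 0.0520). Females and GDX males differed by 0.04 (95% confidence interval -0.22 to 0.30) in WT and by 0.13 (-0.13 to 0.39) in KO. In KO these 2 groups did not overlap, by a very small margin, where 20.3% of all genes did not overlap. The mean of the X-zone markers Akr1c18 and Pik3c2g moved with these contrasts: 4.10 to 4.30 in intact WT males, 5.25 to 7.58 in intact KO males and 7.14 or more in all other arrays. Pik3c2g was dim over the 24 arrays (4.01 to 5.08) and was not tested, so the mean followed Akr1c18, which read 4.10 to 12.9. The part of this mean in the Nr5a1 levels was not tested.

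Deletion of Prkar1a gave no call for Nr5a1. Females gave a change of 0.19 ± 0.13 (log2, SE; limma adjusted p = 0.259), intact males 0.19 ± 0.13 (0.796) and GDX males 0.10 ± 0.13 (0.724). In females each KO array was above each WT array (exact permutation p = 0.0286), which held for 2 of 6 members and for 32.8% of all genes in either direction, and a fit of the 8 female arrays alone, without the wider spread of the males, gave limma adjusted p = 0.0473.

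Ordered by group mean, Nr5a1 went from KO females (10.57) through KO GDX males (10.44), WT females (10.38), WT GDX males (10.34) and intact KO males (10.08) to intact WT males (9.89). Of these neighbours, only KO females and KO GDX males had arrays that did not overlap, and their nearest arrays read 10.5415 and 10.5388.

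Nr0b1 had the widest range of the 6 genes, 5.28 to 9.25. Its signal was 9.12, 9.02, 9.25 and 9.02 in WT females, and 7.73, 8.45, 8.35 and 8.42 in KO females. Intact males read 7.75, 5.92, 6.04 and 6.28 in WT, and 6.07, 6.12, 6.22 and 6.58 in KO. All WT female arrays were above all other arrays, and in intact males all but WT male array 1 lay under 7. GDX males read 8.46, 5.37, 8.26 and 8.09 in WT, and 7.95, 5.28, 8.18 and 8.10 in KO. In each GDX group 3 arrays lay close to KO females, and array 2 lay under every intact male.

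The sequence before the start of Nr0b1 is shown because this gene had the largest differences of the 6. RefSeq entries for the GRCm38.p6 build gave promoter windows for 2 of the 6 genes, Nr0b1 and Nr5a2. The Nr0b1 window holds 250 bases before the annotated start, at chrX:86191525-86191774 on the plus strand, 5′ to 3′. Capitals mark the matches to AGGTCA, the core half-site of nuclear receptors such as NR5A1, and to the TATA box TATAAA.
Nr0b1: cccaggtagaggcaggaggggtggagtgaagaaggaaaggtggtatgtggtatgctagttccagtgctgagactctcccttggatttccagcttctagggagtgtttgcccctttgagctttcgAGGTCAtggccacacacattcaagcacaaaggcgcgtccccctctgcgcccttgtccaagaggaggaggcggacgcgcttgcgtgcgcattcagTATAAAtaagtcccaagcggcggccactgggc
The half-site match begins 126 bases before the start and the TATA box match 32 bases before it. Searched on both strands, the half-site letters were found in 14% of 32851 such windows and the TATA box letters in 12.4%. A GATA site, GATAAG, was found in 6.55% of them. The cyclic AMP response element, TGACGTCA, was found in 1.55%. The Nr0b1 window held neither of these last motifs, which says only that their letters are not in these 250 bases.

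Nr0b1 rose in females over intact males by 2.60 ± 0.59 (log2, SE; limma adjusted p = 0.00729) in WT, which is 6.08-fold, and by 1.99 ± 0.59 (adjusted p = 0.0100) in KO, or 3.96-fold. Neither pair of groups overlapped (exact permutation p = 0.0286 in both). The WT call held without any 1 array, with a range of 2.41 to 3.02. In KO the call was lost with the medullary (limma adjusted p = 0.134) or capsular (0.737) marker mean as a covariate, each nearly the same split as sex there.

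The KO females lay 0.86 ± 0.59 (log2, SE) under the WT females with limma adjusted p = 0.286, although the 2 groups did not overlap (exact permutation p = 0.0286). The limma fit shares 1 spread over all groups, and the spread of Nr0b1 was widest in the GDX groups (SD 1.46 and 1.40, n = 4 each) and the intact WT males (SD 0.85, n = 4), against 0.11 in WT females and 0.34 in KO females (n = 4 each). A fit of the female arrays alone gave limma adjusted p = 0.00294, and the capsular marker mean as a covariate moved the change to -2.51 (limma adjusted p = 0.0259). In intact males the KO change was -0.24 (95% confidence interval -1.48 to 0.99) and in GDX males -0.17 (-1.40 to 1.06). The difference between the KO effects in females and intact males was -0.62 ± 0.84 (log2, SE; limma adjusted p = 0.671).

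For gonadectomy, the result rested on array 2 of each GDX group. With all arrays the change in Nr0b1 was 1.05 ± 0.59 (log2, SE; limma adjusted p = 0.378) in WT and 1.12 ± 0.59 (0.212) in KO. Without array 2 of both GDX groups, a choice made after these values were seen, it was 1.77 (limma adjusted p = 0.00295) in WT and 1.82 (adjusted p = 0.00066) in KO. Leaving out any 1 array gave at most 1.77 in WT, with no call (lowest limma adjusted p = 0.0673). In KO it gave at most 1.82, with 1 call (limma adjusted p = 0.0253). WT females and WT GDX males did not overlap, as for 2 of 6 members and 7.60% of all genes (1.56 ± 0.59, log2, SE; limma adjusted p = 0.293), while KO females and KO GDX males did (0.86 ± 0.59; 0.338).

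The group means of Nr0b1 ran from WT females (9.10) through KO females (8.24), WT GDX males (7.54), KO GDX males (7.38) and intact WT males (6.50) to intact KO males (6.25). The arrays of each neighbouring pair after the first overlapped. Over the 24 arrays Nr0b1 and Nr5a1 correlated with r = 0.57, and with r = 0.27 once group means were taken away. The arrays share sex and gonadal state within groups, so both values are descriptions.

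**Figure D2:**
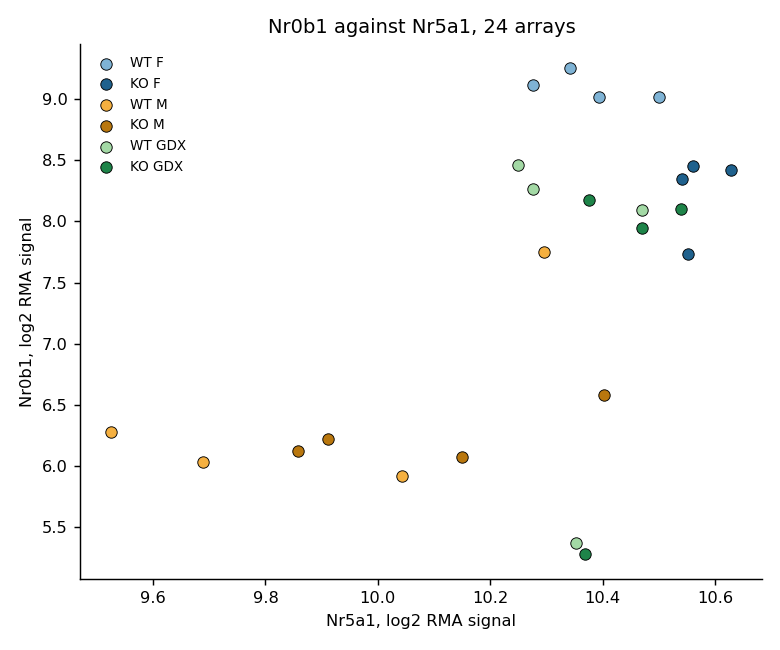
Nr0b1 (vertical axis) against Nr5a1 (horizontal axis), both as log2 RMA signal, with 1 point per array coloured by group. WT females sit at the top at similar Nr5a1 to GDX males, and array 2 of both GDX groups lies at the bottom with Nr5a1 at 10.35 and 10.37.

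Gata4 was higher in WT females than in KO females and in intact WT males, with 3 of the 4 WT female arrays above every other array. The signal was 6.56, 5.92, 6.38 and 6.42 in WT females, and 5.73, 6.00, 5.69 and 5.91 in KO females. Intact males read 5.92, 6.15, 5.58 and 5.65 in WT, and 5.89, 5.89, 5.68 and 5.97 in KO. In GDX males it was 6.13, 5.86, 5.94 and 5.95 in WT, and 6.23, 5.86, 5.89 and 5.78 in KO. WT female array 2 was inside the range of every other group. No array read above 6.56, so Gata4 was dim throughout.

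In KO females Gata4 fell by 0.49 ± 0.13 (log2, SE; limma adjusted p = 0.00750), a 1.40-fold reduction. It was 1 of 2 members called lower, where 18.7% of all genes were called lower, so that 2 of 6 is near the background. The groups overlapped through WT female array 2 (exact permutation p = 0.0571). The call held on leaving out any 1 of the 8 arrays, and was lost with the medullary (-0.49; limma adjusted p = 0.0555) or capsular (-0.47; 0.117) marker mean as a covariate. In intact males the KO change was 0.04 (95% confidence interval -0.24 to 0.31) and in GDX males -0.03 (-0.31 to 0.25). The KO effect in females minus that in intact males was -0.52 ± 0.19 (log2, SE; limma adjusted p = 0.0613), in a test that called 16.0% of all genes.

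WT females exceeded intact WT males in Gata4 by 0.50 ± 0.13 (log2, SE; limma adjusted p = 0.0229), or 1.41-fold, with overlapping groups (exact permutation p = 0.0571). That call was lost without WT female array 1, 3 or 4 or WT male array 3 or 4 (limma adjusted p from 0.0601 to 0.0951). In KO the sexes differed by -0.03 (95% confidence interval -0.30 to 0.25). WT females against WT GDX males gave 0.35 ± 0.13 (log2, SE; limma adjusted p = 0.291; exact permutation p = 0.114), with overlapping groups and no call. Gonadectomy gave 0.15 (-0.13 to 0.42) in WT and 0.08 (-0.20 to 0.36) in KO, with no call. By group mean, WT females (6.32) were followed by WT GDX males (5.97), KO GDX males (5.94), intact KO males (5.86), KO females (5.83) and intact WT males (5.82), and each neighbouring pair overlapped.

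Gata6 had the smallest called difference of the 6 genes. The signal was 9.40, 9.40, 9.33 and 9.51 in WT females, and 9.24, 9.27, 9.47 and 9.34 in KO females. Intact males read 9.57, 9.60, 9.54 and 9.81 in WT, and 9.60, 9.54, 9.76 and 9.54 in KO. GDX males read 9.60, 9.60, 9.53 and 9.57 in WT, and 9.72, 9.62, 9.32 and 9.41 in KO. Each female array was below each intact male array of its genotype, and the KO GDX arrays spanned both.

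Gata6 fell by 0.28 ± 0.08 (log2, SE; limma adjusted p = 0.00868) in KO females relative to intact KO males, a 1.21-fold difference, in a contrast that called 23.1% of all genes lower. The WT difference was -0.22 ± 0.08 (limma adjusted p = 0.107), with groups that did not overlap (exact permutation p = 0.0286). The KO call held without any 1 array, and was lost with the medullary (limma adjusted p = 0.521) or capsular (0.438) marker mean as a covariate. Those covariates were nearly the same split as sex in KO. Deletion of Prkar1a shifted the mean by -0.08 (95% confidence interval -0.25 to 0.09) in the female glands, by -0.02 (-0.19 to 0.15) in those of intact males and by -0.06 (-0.23 to 0.11) after gonadectomy, none of them called. The mean signal went from intact WT males (9.63) through intact KO males (9.61), WT GDX males (9.58), KO GDX males (9.52) and WT females (9.41) to KO females (9.33), and each neighbouring pair overlapped.

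Gata6os, the antisense gene named for Gata6, was added after its values were seen. It fell in females relative to intact males by 0.34 ± 0.10 (log2, SE; limma adjusted p = 0.0478) in WT and by 0.54 ± 0.10 (0.000270) in KO. It also fell with gonadectomy, by 0.36 ± 0.10 (limma adjusted p = 0.0475) in WT males and by 0.42 ± 0.10 (0.00883) in KO males, where Gata6 itself gave -0.05 ± 0.08 (0.795) and -0.09 ± 0.08 (0.497). Signals from the 2 strands could be mixed, since the sources used here do not say whether the probe sets tell them apart. The antisense gene of Wt1, Wt1os, read 3.42 to 4.02 and was not tested.

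Wt1 was lower in KO females than in WT females, and its highest array was a KO GDX male. The signal was 6.21, 5.90, 6.36 and 6.66 in WT females, and 5.74, 5.82, 5.96 and 5.52 in KO females. Intact males stayed between 5.77 and 6.00 in WT and between 5.81 and 5.99 in KO. GDX males read 6.01, 6.11, 6.21 and 6.10 in WT, and 5.96, 6.95, 5.99 and 5.89 in KO. WT female array 2 lay among the KO females, and KO GDX array 2 stood apart from its group.

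Wt1 fell by 0.52 ± 0.17 (log2, SE; limma adjusted p = 0.0244) in KO females, a 1.44-fold reduction, with overlapping groups (exact permutation p = 0.0571). The call was lost without WT female array 3 (limma adjusted p = 0.0582), WT female array 4 (0.0947) or KO female array 4 (0.0838). The KO change was -0.02 (95% confidence interval -0.38 to 0.34) in intact males and 0.09 (-0.27 to 0.45) in GDX males. The KO effect in females minus that in intact males was -0.50 ± 0.24 (log2, SE; limma adjusted p = 0.169), and minus that in GDX males -0.61 ± 0.24 (0.170), where 3.31% of all genes were called. WT GDX arrays were all above intact WT male arrays (0.19 ± 0.17, log2, SE; limma adjusted p = 0.626; exact permutation p = 0.0286), the single member without overlap in that comparison, against 9.29% of all genes.

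The mean signal of Wt1 went from WT females (6.28) through KO GDX males (6.20), WT GDX males (6.11), intact WT males (5.92) and intact KO males (5.90) to KO females (5.76). WT GDX and intact WT males were the neighbours in that order whose arrays did not overlap.

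Markers of other parts of the gland moved with the 2 genes that fell in KO females. Of all genes tested there, 18.7% were called lower and 13.9% higher. The mean of 9 capsule and mesenchymal markers was 7.02 to 7.24 in KO females and 8.0 to 8.09 in WT females, without overlap, and 7 of its 9 genes fell, among them Pdgfra (-1.10), Rspo3 (-1.23) and Gli1 (-0.45, log2 change). With the mean of the markers other than Tcf21 and Nr2f2 as a covariate, here and wherever a capsular covariate is named, the KO change of Wt1 in females was 0.0599 (limma adjusted p = 0.873). Of 8 tested mesothelial markers 2 fell, Aldh1a2 (-1.54) and Gpm6a (-0.65), which is near the share of all genes called lower. The mesothelial marker mean was nevertheless lower, at 5.38 to 5.59 in KO and 5.61 to 5.82 in WT females, without overlap. The mesothelial keratins Krt7 (0.10, limma adjusted p = 0.549) and Krt19 (-0.03, limma adjusted p = 0.826) were not called. Of 10 medullary markers 8 fell, and 4 of 10 macrophage markers rose. The zona glomerulosa marker mean was 7.25 to 7.66 in KO and 8.94 to 9.30 in WT females, and 7 of its 8 genes fell, among them Vsnl1 (-3.57) and Hsd3b6 (-3.48). The adipocyte marker mean was 7.30 to 7.95 against 8.32 to 9.49, and 5 of its 10 genes fell, among them Retn (-2.79), Car3 (-2.40) and Adipoq (-2.03). Covariate and genotype were nearly the same split in females, as were covariate and sex between KO females and intact KO males. How far the marker shifts and the genes share a source was not tested.

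KO GDX array 2, the highest for Wt1, also had the highest capsular marker mean, 8.70 against 7.51 to 7.95 in the rest of its group. Its mesothelial marker mean was also the highest of its group, 6.02 against 5.50 to 5.71. Its macrophage marker mean was 8.0 against 6.98 to 7.38, and its 1 erythrocyte marker read 6.69 against 4.78 to 5.05. Its Nr0b1 value of 5.28 was the lowest of the series.

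**Figure D3:**
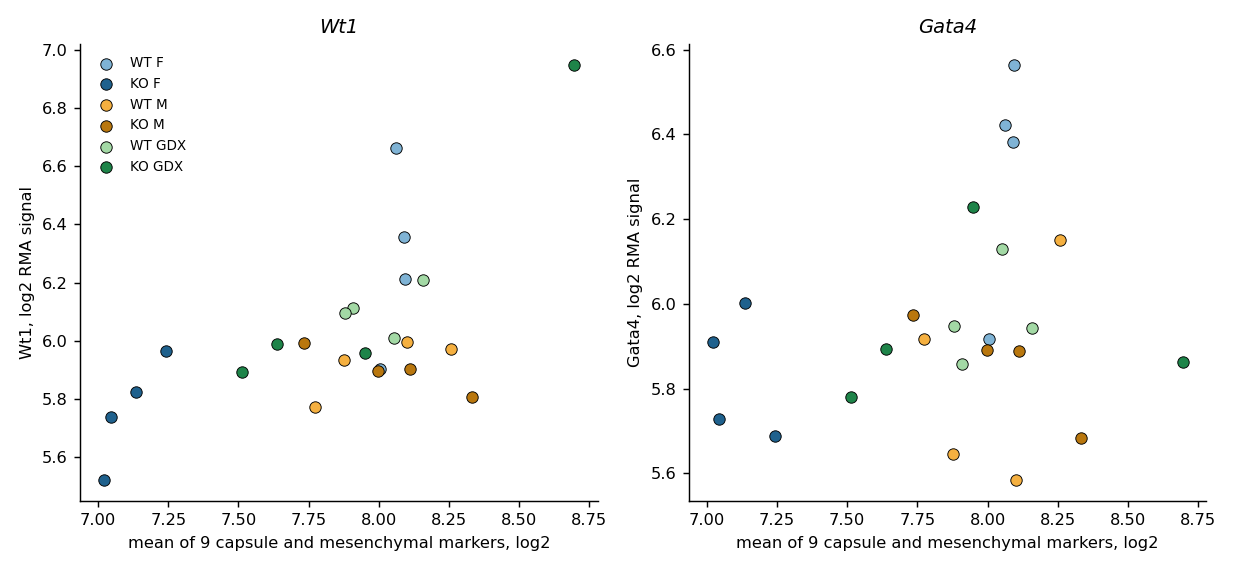
Log2 RMA signal of Wt1 (left) and Gata4 (right) on the vertical axes against the mean log2 signal of 9 capsule and mesenchymal markers (horizontal axes), 1 point per array coloured by group. KO females lie alone at the left between 7.02 and 7.24, and KO GDX array 2 alone at the right at 8.70.

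Nr5a2 stayed between 5.54 and 6.00 in all 24 arrays, with group means from 5.68 to 5.83, every neighbouring pair in that order overlapping. No comparison was called under any setting tried. The change with Prkar1a deletion was -0.06 (95% confidence interval -0.23 to 0.12) for females, 0.07 (-0.10 to 0.25) for intact males and -0.01 (-0.19 to 0.17) for GDX males. The signal was dim, and with 4 arrays a group true changes within these intervals remain possible.

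**Figure D4:**
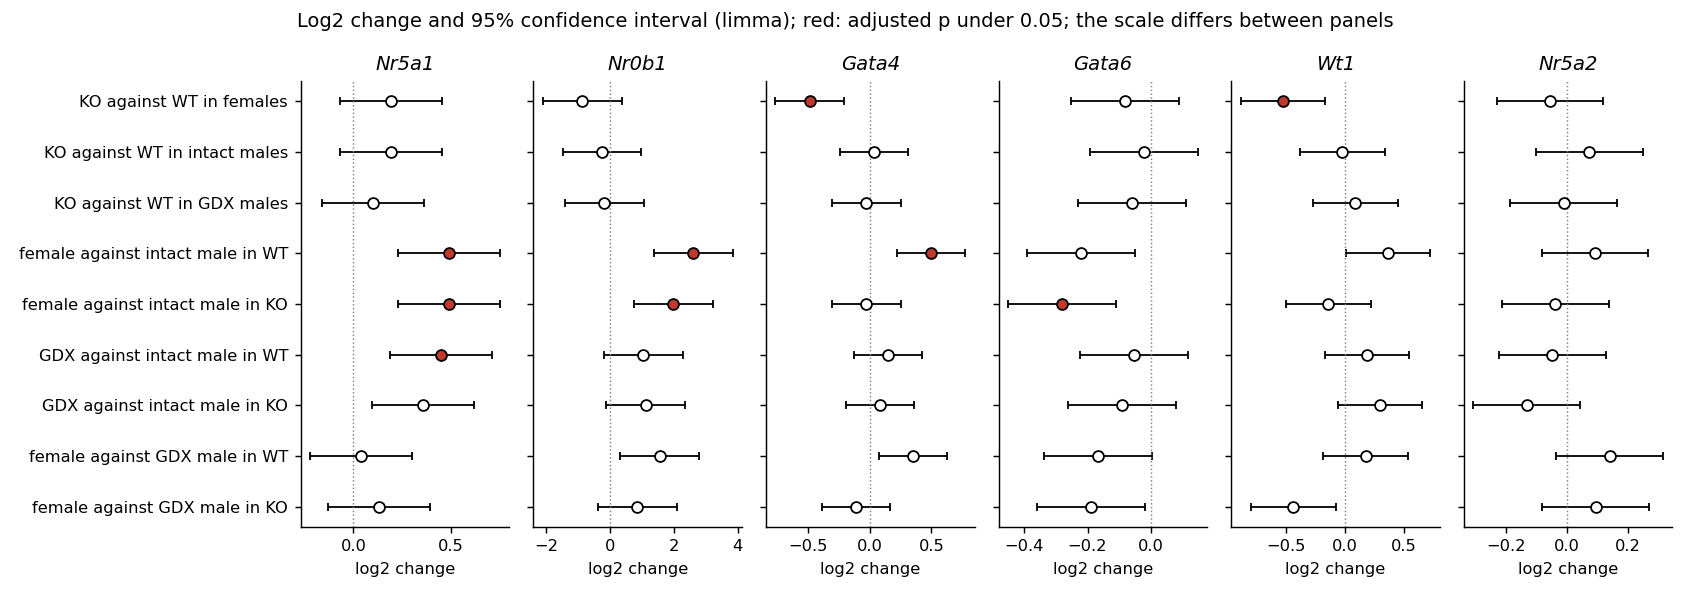
Log2 change (horizontal axis, with its own scale per gene) and 95% confidence interval from the limma fit for each gene in the 9 comparisons between 2 groups. Red points have an adjusted p under 0.05; the 9 red points lie in KO against WT females, the comparisons of females with intact males and, for Nr5a1, gonadectomy in WT.

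Read by comparison, KO in females called 2 of the 6 genes, against 32.6% of all genes. In intact males limma called 0 of 6, against 0.111% of all genes, and 0 had an unadjusted p under 0.05, against 7.49%. In GDX males it called 0 of 6, against 4.23%, and 0 at an unadjusted p under 0.05, against 19.7%. Females against intact males called 3 of 6 in WT, against 7.75%, and 3 of 6 in KO, against 41.0%. Females against GDX males called 0 of 6 in WT, against 0.902% of all genes (unadjusted, 2 of 6 against 11.5%), and 0 of 6 in KO, against 18.4% (unadjusted, 2 against 31.7%). Gonadectomy in KO called 0 of 6, against 15.4% (unadjusted, 1 against 29.9%). The tests of a difference between KO effects called 0 of 6 for females minus intact males, against 16.0% of all genes (unadjusted, 1 against 30.2%). For GDX minus intact males they called 0, against 0.0278% (unadjusted, 0 against 9.44%), and for females minus GDX males 0, against 3.31% (unadjusted, 2 against 18.8%). No KO effect on a member was shown to differ between sexes or gonadal states. The comparisons within a sex or genotype share arrays with one another, and their counts are not independent.

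Cofactors and other regulators of cortical development were taken as a further list of 24 genes, of which 17 were tested. In KO females 7 fell, where 18.7% of all genes were called lower, and 1 rose, where 13.9% were called higher, with a median change of -0.26 (log2) where all genes had -0.02. Zfpm2, the FOG2 cofactor that binds GATA factors, fell by 1.00 ± 0.12 (log2, SE; limma adjusted p = 2.60e-06). Tcf21, a factor of capsular mesenchyme, fell by 0.80 ± 0.15 (0.000330). The orphan receptors Nr2f2 (-0.47) and Nr2f1 (-0.35), the coactivators Ncoa1 (-0.39) and Ncoa3 (-0.30), and Meis1 (-0.22), a homeobox partner of PBX and HOX proteins, fell as well. Cited2, a coactivator that acts with WT1 on Nr5a1, rose by 0.38 ± 0.11 (log2, SE; limma adjusted p = 0.0122). Ctnnb1, which encodes beta-catenin, changed by -0.11 ± 0.05 (limma adjusted p = 0.0871). Tcf21 and Nr2f2 are also among the capsular markers above.

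Neither KO in intact males nor KO in GDX males called any of these 17. Of all genes, these comparisons called only 0.111% and 4.23%. In the tests of the difference itself, the KO effect on Zfpm2 in females minus that in intact males was -0.77 ± 0.17 (log2, SE; limma adjusted p = 0.00470), and minus that in GDX males -0.71 ± 0.17 (0.0225). The KO effect in females was also below that in intact males for Tcf21 (-0.91), Nr2f2 (-0.59), Ncoa1 (-0.42) and Ncoa3 (-0.52), and above it for Cited2 by 0.49 ± 0.16 (log2, SE; limma adjusted p = 0.0411). The WT controls of these KO effects differed in Prkar1a and Cre alleles, from which the differences cannot be told apart. Cited2 rose in females over intact males by 0.49 in WT and 0.98 in KO, and with gonadectomy by 0.63 in WT and 0.92 in KO.

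Genes of steroid synthesis with known NR5A1 sites were taken next, with 13 of 16 listed genes tested. In KO females 7 rose and 1 fell, with a median change of 0.18 (log2) where all genes had -0.02. Of all genes 13.9% were called higher and 18.7% lower. The largest rises were those of Hmgcs1, of cholesterol synthesis, by 1.38 ± 0.23, Fdx1, the electron carrier of mitochondrial P450 enzymes, by 1.25, Mrap, the accessory protein of the ACTH receptor, by 1.21, and Scarb1, the receptor for high-density lipoprotein, by 0.93 ± 0.09 (log2, SE; limma adjusted p = 3.17e-07). Cyp21a1, Cyp11a1 and Star rose by 0.20, 0.18 and 0.12, on mean signals of 12.5, 12.7 and 13.1. Cyp11b2, aldosterone synthase and also the locus that carries Cre, fell by 2.30 ± 0.36 (log2, SE; limma adjusted p = 5.11e-05). Hsd3b1 (-0.15), Cyp11b1 (-0.11), Mc2r (-0.12), Inha (-0.08) and Cyp17a1 (1.20 ± 0.57, limma adjusted p = 0.114) were not called.

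In intact KO males 1 of the 13 rose, Inha, the inhibin alpha subunit, by 0.77 ± 0.12 (log2, SE; limma adjusted p = 0.00774). Of all genes 0.111% were called there, in either direction. In GDX KO males 3 rose, Scarb1 by 0.78, Mrap by 0.76 and Fdx1 by 0.45, where 4.23% of all genes were called in either direction. Both sets of changes stood beside Nr5a1 changes that were not called.

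**Figure D5:**
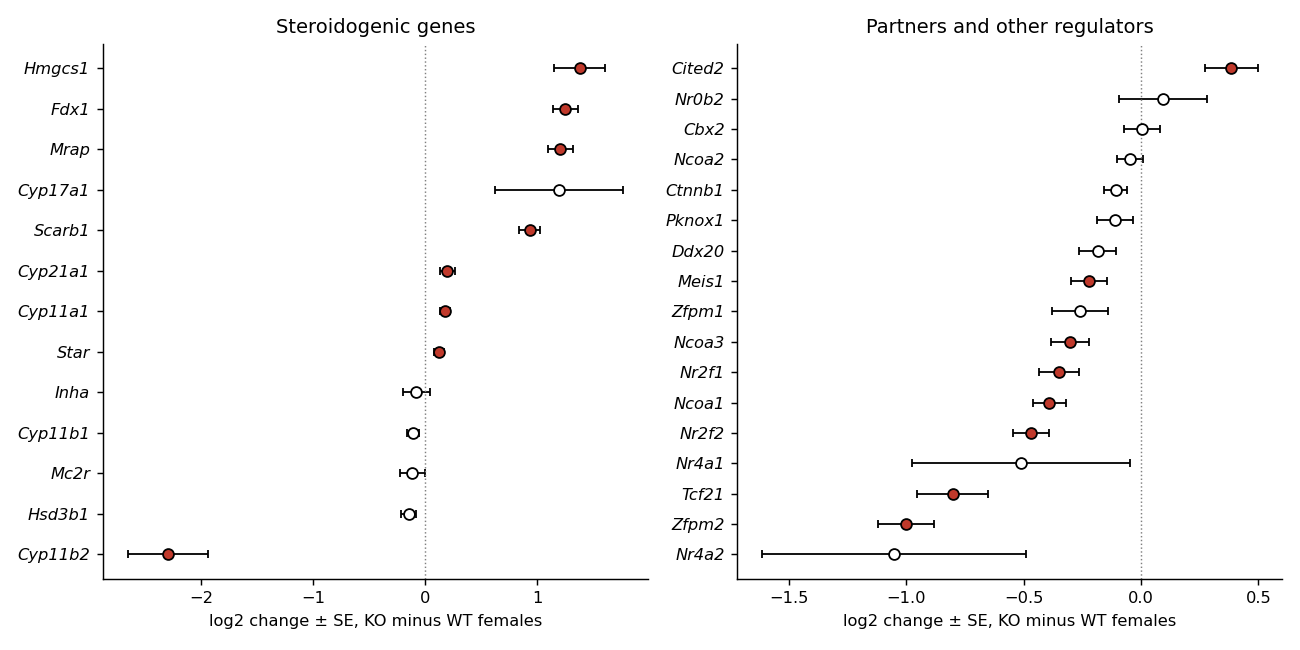
Log2 change ± SE in KO minus WT females (horizontal axis) of 13 steroidogenic genes (left) and 17 cofactors and other regulators (right), from the limma fit; red points have an adjusted p under 0.05. Of the steroidogenic genes 7 lie to the right as calls and Cyp11b2 to the left, and of the regulators 7 lie to the left as calls and Cited2 to the right.

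Genes typical of the gonads were listed too, with 11 tested. In KO females 2 rose, Hsd17b3, the testicular enzyme that makes testosterone, by 1.30 and Sfrp1, a secreted Wnt antagonist, by 0.57, and 3 fell, the estrogen receptor gene Esr1 (-0.84), Foxl2 (-0.39), an ovarian transcription factor, and Amhr2 (-0.32), the anti-Müllerian hormone receptor. The 5 calls of 11 stand against 32.6% of all genes called. Amh (-0.08) and Sox9 (-0.06), both Sertoli cell genes, were not called. Gonadectomy called 0 of the 11 in WT males and 1 in KO males, Sfrp1, which rose by 0.80. Of all genes, gonadectomy called 4.50% in WT males and 15.4% in KO males. Gata4, Wt1 and Foxl2 were called in neither.

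For each member, the 3 genes with the highest and the 1 with the lowest Pearson correlation over the 24 arrays were named. Masp1 (r = 0.93), Gramd1b (0.92) and Oxtr (0.92) were nearest to Nr5a1, with Lynx1 (-0.90) lowest. After removal of group means (within groups) these read 0.81, 0.89, 0.81 and -0.68. Speer9-ps1, Samd5 and Pipox (0.83 each) were nearest to Nr0b1, with Macf1 (-0.83) lowest, or 0.51, 0.66, 0.59 and -0.60 within groups. Frem1 (0.78), Sdc2 (0.72) and Coch (0.71) were nearest to Gata4, with Card19 (-0.77) lowest, or 0.75, 0.43, 0.44 and -0.69 within groups. Around Gata6 stood Myh9 (0.85), Klf7 (0.85) and Pik3ap1 (0.84), with Ddx3x at -0.82, or 0.70, 0.74, 0.69 and -0.55 within groups. Wt1 was nearest to Lrrc17 (0.87), Col3a1 (0.86), a fibrillar collagen, and Scara3 (0.81), with Dync1li1 at -0.74. Within groups these read 0.81, 0.81, 0.72 and -0.62. For Nr5a2 the values were no higher than 0.66 (Ddx31), with Jpx (0.63), Snord55 (0.60) and Stn1 (-0.58). Within groups these read 0.70, 0.50, 0.55 and -0.50. Among the members, Gata6 correlated with Nr5a1 at r = -0.60 and with Nr0b1 at r = -0.58, falling to -0.26 and -0.24 within groups, and Nr0b1 with Wt1 at -0.05, or -0.55 within groups. The last value rested on KO GDX array 2, without which it was -0.11.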

How the data were processed

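Whole-gland RNA of 24 mice, 4 in each of 6 groups, was labelled and hybridised to Affymetrix arrays, 1 array per mouse, per the labels. The deposited values are on a log2 scale and were normalized by the authors with RMA, per the submitters' processing notes; the sources used here give neither software version nor annotation build. Of 32202 probe sets, 22943 had 1 symbol, 1731 several and 7528 none; the probe set with the highest mean was kept for each gene. Genes over log2 5 in at least 4 arrays were tested with limma 3.58.1 in R 4.3.3, with 6 group means fitted over all arrays and Benjamini-Hochberg adjustment over 14411 genes at 0.05. Changes of single genes were also given an exact two-sided permutation test of 4 against 4 arrays (70 arrangements, smallest p 0.0286). Array number limits the precision. The rule for named genes took the 6 members, Prkar1a, at most 4 genes with the largest change per list, and per member the 3 genes with the highest and the 1 with the lowest correlation, leaving out predicted symbols; further genes of the lists were named after their values were seen. Members and lists were chosen with earlier results of these data known. Deviations of same-numbered arrays correlated at 0.120 to 0.243 between the WT and KO GDX groups. This was the only pair of groups with every value over 0.1. Intact WT and WT GDX males came close, at 0.0934 to 0.244. The replicate titles name no pairing. The limma script was tested on simulated data. Alternatives covered filters, normalization, arrays left out, array weights, a block and marker means as covariates.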

Additional observations from a re-analysis of the deposited data

Results flagged for a closer look

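In 36 groups of 4 values (6 genes in 6 groups), 4 values stood apart from the rest of their group. The measure was the gap to the nearest value over the group's range (Dixon's test at 95%). Chance marks about 1 in 20 such groups. Nr0b1 read 7.73 in KO female array 1, where the other arrays were at 8.35 or more. Nr0b1 also read 5.37 in WT GDX array 2 and 5.28 in KO GDX array 2, where the other arrays of these groups read 7.95 or more. Wt1 read 6.95 in KO GDX array 2, where the other arrays read 5.99 or less. KO GDX array 2 thus stood apart for both genes.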

How the results depend on the processing

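Of the 6 genes, KO in females called 2, or 0 with the medullary and 1 with the capsular marker mean as a covariate, 4 with the female arrays alone, and 1 to 2 without 1 array. The 1 call with the capsular covariate was Nr0b1, and the calls of Gata4 and Wt1 were both lost with it. Females against intact males called 3 in WT, or 1 with those arrays alone and 1 to 3 without 1 array, and 3 in KO, or 0 with the medullary and 0 with the capsular covariate. Gonadectomy called 1 in WT, or 0 with no filter, another quantile normalization, the medullary covariate, the adipocyte covariate, or those groups alone, and 0 to 1 without 1 array. With the replicate block it called 0, with Nr5a1 at limma adjusted p = 0.0520. The block changed no other count of members called. Without array 2 of both GDX groups, a choice made after seeing the data, the 1 call in WT was Nr0b1, and the Nr5a1 call was lost. In KO gonadectomy called 0, or 1 with a filter at log2 6, 2 with array weights, 1 without array 2 of both GDX groups, a choice made after seeing the data, and 0 to 1 without 1 array. Females against GDX males in KO, and the KO effect in females minus intact males, called 0, or 0 to 1 without 1 array. The other 5 comparisons called 0 under every setting run. Of the 72 gene results, 32 changed sign under some setting, of which 1 had been called: Wt1 in KO females, 0.0599 with the capsular covariate. The same covariate turned 3 genes in KO females against KO GDX males, Nr0b1 (-0.67 from 0.86), Wt1 (0.107 from -0.44) and Nr5a1 (-0.03 from 0.13). It also turned Wt1 in KO females against intact KO males (0.42 from -0.14) and in the KO effect in females minus intact males (0.09 from -0.50). None of the turned values was called. The causes were not tested. The 4 arrays a group limit what could be detected. The signals of Gata4, Wt1 and Nr5a2 were dim, and whether that limited detection was not tested.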
